A study of Mus musculus with 8 samples.

Results

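Oxidative phosphorylation genes were described in regulatory T cells (Tregs) derived in vitro, starting from naive CD4+ splenic T cells of B6 mice. The members were the protein-coding genes whose names start with Nduf, Uqcr, Atp5, Sdha to Sdhd or Cox4 to Cox8, and the mitochondrially encoded mt-Nd, mt-Co, mt-Cytb and mt-Atp genes. These were 108 of the 19330 genes in the deposited table, with 95 encoded in the nucleus and 13 in the mitochondrial DNA. The rule uses names and no measured value. The cells were cultured for 3 days with oxPAPC (4 libraries) or without it (4 control libraries), and both groups were B6 cells under the same Treg polarization. OxPAPC is a mixture of oxidized phospholipids obtained by oxidizing PAPC, a phosphatidylcholine that carries an arachidonoyl chain. The cells are a culture model of Tregs, and no label tells whether a replicate stands for its own mouse or culture, so that p-values here speak of the spread among these libraries, which may be technical.

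Oxidative phosphorylation makes ATP in the inner mitochondrial membrane. Complex I and complex II pass electrons from NADH and succinate to ubiquinone, complex III passes them to cytochrome c, and complex IV passes them to oxygen. Complexes I, III and IV pump protons, and complex V, the ATP synthase, lets protons flow back through a rotor ring and makes ATP. Complex II is encoded wholly in the nucleus, whereas the other complexes combine nuclear subunits with a few core subunits read from mitochondrial DNA, so that their assembly draws on both genomes. Tregs are known for a greater reliance on oxidative metabolism than effector T cells.

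Gene counts summed to between 14017583 and 21619731 per library, and 16434 genes passed the filter on low counts. The noncoding RNA Gm26917 took 13.7 ± 5.09% of the counts of oxPAPC libraries and 18.3 ± 8.51% of those of control libraries (SD, n = 4 each), and its share varied within both groups. The summed level of 7 Treg markers, Foxp3 and Il2ra among them, was 1487 to 2084 CPM (library-scaled counts, after TMM scaling) in oxPAPC libraries and 1353 to 1714 CPM in control libraries, and no marker of this list passed the test. The 6 T cell markers summed to 1459 to 1670 CPM in oxPAPC libraries and 1576 to 1835 CPM in control libraries. Markers of other cells were low and some were higher in oxPAPC libraries. The 5 B lineage markers summed to 15.1 to 18.1 CPM in oxPAPC libraries and 9.51 to 14.5 CPM in control libraries, and 3 of 5 rose. The CD8 T cell markers summed to 10.9 to 18.7 CPM in oxPAPC libraries and 6.71 to 8.89 CPM in control libraries, and 1 of 2 rose. The macrophage and myeloid markers summed to 9.08 to 11.3 CPM in oxPAPC libraries and 3.77 to 4.79 CPM in control libraries, and the dendritic cell markers to 12.5 to 15.3 CPM in oxPAPC libraries and 6.18 to 10.8 CPM in control libraries, with 1 riser in each list. One platelet marker fell, no natural killer or erythroid marker passed the test, and no marker with values was at 0 in all libraries. The markers Clec9a, Fcgr1, Klrb1c, Ncr1, Pf4 and Ppbp were not analysed here. The part of these cells in the results below was not tested.

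Most genes of oxidative phosphorylation did not pass the test between oxPAPC and control Tregs. Of 108 members, 106 passed the filter on low counts, and of these 3 rose and 1 fell at a threshold of 0.05 in the quasi-likelihood test of edgeR, with p adjusted over all genes by the Benjamini-Hochberg method. The risers were Atp5g1 and Atp5g3, which encode the rotor ring subunit of complex V, and Uqcr11, a small subunit of complex III. The gene that fell was Cox6b2, the testis-type form of a complex IV subunit. The risers made up 2.83% of the tested members, against 6.75% of all genes tested, and the single fall 0.943%, against 6.52%. An unadjusted p under 0.05 was reached by 18 of the 106 members and by 4514 of all 16434 genes tested, a larger share than among the members. In bulk RNA a change in the RNA per cell and a change in the number of cells that carry it cannot be told apart.

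The count of risers moved with single libraries. It was 1 without oxPAPC replicate 1, 2 or 4 or without control replicate 4, and 6 without oxPAPC replicate 3. The count of falls was 2 without oxPAPC replicate 3, oxPAPC replicate 4 or control replicate 3. Calls over all genes, in both directions, moved as well, from 2182 in the main fit. They numbered 1526, 1971, 2134 and 1468 without oxPAPC replicates 1, 2, 3 and 4. They numbered 2109 without control replicate 3 and 1749 without control replicate 4. Atp5g1 and Cox6b2 passed the test in all 20 alternative fits, whereas Atp5g3 passed in 13 and Uqcr11 in 14. By DESeq2, in the authors' deposited table, 8 members were higher and 2 were lower with the same threshold, where 7.88% of the genes with an adjusted p were higher and 6.55% lower. All 4 genes called by edgeR were called there in the same direction, and the others in the authors' deposited table were Uqcrq, Atp5j, Atp5k, Ndufb7 and Ndufs5 (higher) and Cox7a2l (lower).

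**Figure D1:**
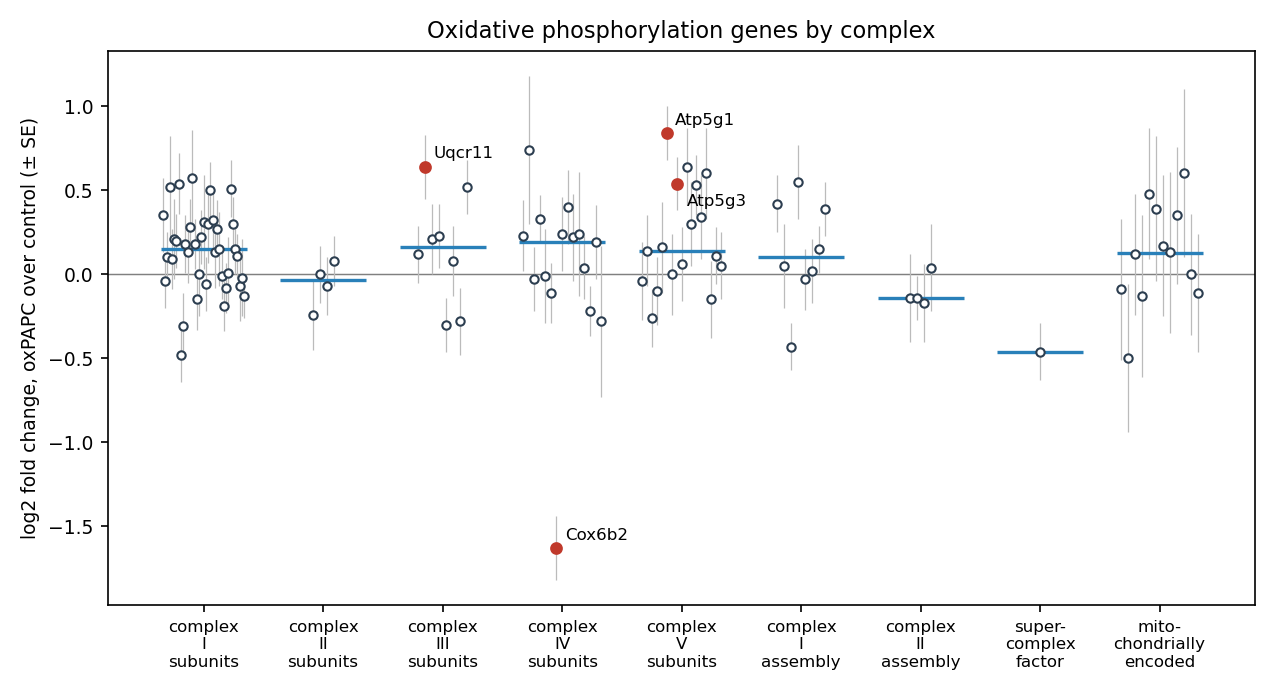
Log2 fold change of each tested member, oxPAPC over control, with its standard error, by complex and role. Filled red points passed the test, open points did not, and blue lines are the class medians, which lie at 0.15, -0.03, 0.16, 0.19 and 0.14 for the nuclear subunits of complexes I to V.

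The median log2 fold change was 0.15 over 37 complex I subunits, -0.03 over 4 complex II subunits, 0.16 over 8 complex III subunits, 0.19 over 15 complex IV subunits and 0.14 over 17 complex V subunits. Over the 81 tested nuclear subunits it was 0.13, against -0.01 over all genes tested, and 55 of the 81 values were above 0. The 13 assembly and supercomplex factors had a median of 0.02 and the 12 tested mitochondrially encoded genes one of 0.12. With library size as the only scaling, the nuclear subunits had a median of 0.27 and all genes one of 0.12.

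Complex V held both of the called c subunit genes. The c subunit forms the ring through which protons pass, and it is encoded by Atp5g1, Atp5g2 and Atp5g3, which give the same mature protein with different mitochondrial targeting peptides. Atp5g1, on chromosome 11 at chr11:96068852-96075670 of GRCm38, had 104, 100, 106 and 97.7 CPM in oxPAPC libraries, against 76.0, 53.1, 45.7 and 53.3 CPM in control libraries. The groups did not overlap, and the oxPAPC libraries lay close together. Atp5g1 rose by 0.84 ± 0.16 (log2, SE; edgeR adjusted p = 0.00373), which is 1.79-fold, and its adjusted p ranged between 2.78e-05 and 0.0174 over the alternatives. Atp5g3 (chr2:73908447-73911326) had 252, 244, 243 and 265 CPM in oxPAPC libraries, against 211, 152, 148 and 181 CPM in control libraries. Here too the groups did not overlap, a pattern shown in this direction by 9.50% of all genes tested. Atp5g3 rose by 0.54 ± 0.16 (SE, edgeR adjusted p = 0.0365), or 1.45-fold, and its adjusted p over the alternatives lay between 0.00323 and 0.124. It missed the threshold without any of oxPAPC replicates 1, 2 and 4 or control replicates 2, 3 and 4.

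Atp5g2 (chr15:102662864-102672352) did not pass the test, and its difference in change from the other c subunit genes was not tested. It had 77.5, 71.4, 105 and 144 CPM in oxPAPC libraries and 92.3, 68.1, 135 and 102 CPM in control libraries, with a log2 value of 0.00 ± 0.24 (SE, edgeR adjusted p = 0.997). The 3 genes together summed to 452 ± 39.6 CPM in oxPAPC libraries and 329 ± 43.4 CPM in control libraries (SD, n = 4 each), with values of 433, 415, 454 and 507 against 379, 274, 329 and 336. Atp5g1 made up 22.7 ± 2.28% of the counts of the 3 genes in oxPAPC libraries and 17.3 ± 2.91% in control libraries, and the groups overlapped, since oxPAPC replicate 4 (19.3%) lay below control replicates 1 and 2. Of the windows of 50 bases along their transcripts, 11.1% of those of Atp5g1, 38.3% of Atp5g2 and none of Atp5g3 also occurred in another gene, so that reads of Atp5g2 are the least certain to be assigned.

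The promoters of the called genes and of Atp5g2 are given to let the 3 c subunit genes be read side by side, since they make one protein. The windows run from 250 bases before to 50 bases after the gene's start, 5′ to 3′ on the gene's strand, from RefSeq on GRCm38.p6, and all 5 genes lie on the minus strand. For Atp5g1, Atp5g2 and Uqcr11 the RefSeq start differs from that of the GENCODE gene. The difference is largest for Atp5g2, whose window lies wholly inside the GENCODE coordinates given above. Capitals mark matches, on either strand, to 4 motifs described for genes of the respiratory chain: CCGGAAG (ETS family, to which GABP belongs), GCGCAN followed directly by GCGC (NRF1), AAGATGGCG (YY1) and GGGCGG (SP1).
Atp5g1, chr11:96075582-96075881: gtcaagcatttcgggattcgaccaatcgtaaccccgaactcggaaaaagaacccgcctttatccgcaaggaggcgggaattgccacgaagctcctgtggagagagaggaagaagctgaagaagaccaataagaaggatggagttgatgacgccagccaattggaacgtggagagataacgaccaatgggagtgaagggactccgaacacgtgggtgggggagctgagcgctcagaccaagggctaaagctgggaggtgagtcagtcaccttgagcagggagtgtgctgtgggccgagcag
Atp5g2, chr15:102670998-102671297: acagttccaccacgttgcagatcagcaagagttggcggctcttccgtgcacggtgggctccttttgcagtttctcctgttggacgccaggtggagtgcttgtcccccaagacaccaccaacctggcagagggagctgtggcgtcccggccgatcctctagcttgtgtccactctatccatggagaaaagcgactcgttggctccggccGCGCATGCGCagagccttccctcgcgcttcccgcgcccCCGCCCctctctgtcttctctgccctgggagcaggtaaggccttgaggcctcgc
Atp5g3, chr2:73911277-73911576: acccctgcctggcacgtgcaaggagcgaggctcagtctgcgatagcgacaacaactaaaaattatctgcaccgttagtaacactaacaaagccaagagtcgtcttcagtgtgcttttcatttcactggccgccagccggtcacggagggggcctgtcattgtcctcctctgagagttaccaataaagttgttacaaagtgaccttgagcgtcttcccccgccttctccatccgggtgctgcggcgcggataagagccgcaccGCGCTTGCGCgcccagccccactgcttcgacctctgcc
Uqcr11, chr10:80406772-80407071: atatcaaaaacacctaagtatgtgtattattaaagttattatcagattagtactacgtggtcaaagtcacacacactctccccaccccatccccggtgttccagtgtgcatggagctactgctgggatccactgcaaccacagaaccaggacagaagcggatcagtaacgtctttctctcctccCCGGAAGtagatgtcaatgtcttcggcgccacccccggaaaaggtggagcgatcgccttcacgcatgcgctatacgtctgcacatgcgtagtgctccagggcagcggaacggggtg
Cox6b2, chr7:4753045-4753344: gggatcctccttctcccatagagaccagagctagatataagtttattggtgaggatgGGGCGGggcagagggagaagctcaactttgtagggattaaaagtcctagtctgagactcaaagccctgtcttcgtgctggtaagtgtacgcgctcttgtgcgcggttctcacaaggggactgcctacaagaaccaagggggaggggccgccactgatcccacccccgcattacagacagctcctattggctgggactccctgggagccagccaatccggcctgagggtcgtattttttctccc
The Atp5g2 and Atp5g3 windows each held 1 NRF1 match, Uqcr11 held 1 ETS match, Cox6b2 held 1 SP1 match as did Atp5g2, and Atp5g1 held none of these letters. Promoter windows were found for 79 of the 95 nuclear members, which had 84 windows. The ETS letters were in 26.2% of these windows, against 8.86% of all 32851 promoter windows, and the NRF1 letters in 26.2%, against 4.6%. The YY1 letters were in 9.52% of the members' windows and 1.4% of all, and the SP1 letters in 46.4% and 35.7%. These are letter matches and do not show binding.

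The other 15 complex V subunits did not pass the test. Small subunits of the stalk and the membrane part had some of the higher values: Atp5j (coupling factor F6) reached 0.64 ± 0.23 in log2 fold change (SE, edgeR adjusted p = 0.0782) and Atp5k (subunit e) one of 0.53 ± 0.18 (SE, edgeR adjusted p = 0.0689). Atp5j had 55.8, 56.3, 45.2 and 86.3 CPM in oxPAPC libraries and 44.0, 25.8, 52.0 and 34.5 CPM in control libraries, and the groups overlapped. Atp5j also overlaps Gabpa on the other strand, whose reads cannot be told from its own if counting ignored strand. Of the catalytic head, Atp5a1 (alpha) and Atp5b (beta) had log2 fold changes of -0.04 and 0.14. Atp5b had the highest mean CPM among the nuclear subunits of the complex. It had 692 ± 185 CPM in oxPAPC libraries and 630 ± 84.7 CPM in control libraries (SD, n = 4 each). Per kilobase of transcript the small epsilon subunit Atp5e was the highest nuclear member, at 1589 CPM per kilobase in oxPAPC and 1418 in control libraries. Over the complex, 13 values were above 0 and 4 below, with Atp5c1 (gamma) the lowest at -0.26.

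**Figure D2:**
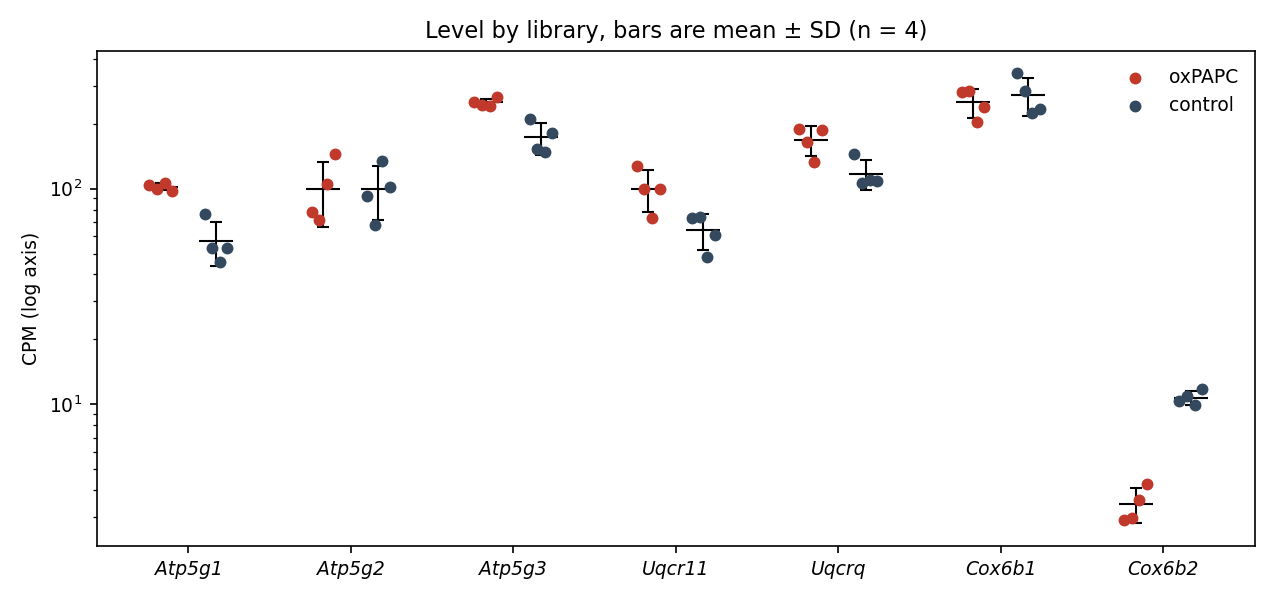
Level in CPM (log axis) of 7 members in each library, oxPAPC (red) left of control (dark), with the mean and SD of 4 libraries. Atp5g1 and Atp5g3 lie higher and Cox6b2 lower in all oxPAPC libraries, with Cox6b2 at 2.91 to 4.26 CPM against 9.95 to 11.7 CPM, whereas Atp5g2 and Cox6b1 overlap between the groups.

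In complex III, Uqcr11 rose and Uqcrq lay just outside the threshold. Uqcr11 (chr10:80402997-80406830) had 128, 99.4, 72.8 and 100 CPM in oxPAPC libraries, against 73.1, 73.8, 48.4 and 61.1 CPM in control libraries. The groups overlapped, since oxPAPC replicate 3 lay just under control replicates 1 and 2. The log2 fold change was 0.64 ± 0.19 (SE, edgeR adjusted p = 0.0345), and the adjusted p ranged between 0.00518 and 0.116 over the alternatives. It missed the threshold without any of oxPAPC replicates 1, 2 and 4 or control replicates 1, 3 and 4. A share of 6.27% of its windows also occurred in another gene. Uqcrq, a small subunit also known as the ubiquinone-binding protein QP-C, had 190, 164, 133 and 188 CPM in oxPAPC libraries, against 145, 106, 110 and 108 CPM in control libraries. Only control replicate 1 overlapped the oxPAPC group. Its log2 fold change was 0.52 ± 0.16 (SE, edgeR adjusted p = 0.0501), it passed in 8 of 20 alternatives, and without control replicate 1 or oxPAPC replicate 3 it was among those 8.

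The core and catalytic subunits of complex III showed no call. Uqcrc1 and Uqcrc2, the core proteins, had log2 fold changes of 0.23 and -0.30, and Uqcrfs1, the Rieske iron-sulfur protein, had 0.08. Uqcrh, the hinge protein, had the highest mean CPM among the nuclear subunits of the complex. It had 227 ± 54.8 CPM in oxPAPC libraries and 276 ± 48.2 CPM in control libraries (SD, n = 4 each). Its log2 fold change was -0.28 ± 0.20 (SE, edgeR adjusted p = 0.414).

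In complex IV, Cox6b2 had the largest change of all members. Cox6b subunits sit on the intermembrane face of complex IV where cytochrome c docks, and Cox6b2 is the form best known from testis, while Cox6b1 is the general one. Cox6b2 (chr7:4751792-4753094) had 2.91, 2.97, 3.61 and 4.26 CPM in oxPAPC libraries, against 10.3, 10.9, 9.95 and 11.7 CPM in control libraries. The groups were far apart and each was tight, and 9.86% of all genes tested were lower in every oxPAPC library. The log2 fold change was -1.63 ± 0.19 (SE, edgeR adjusted p = 0.000123), a level 3.09-fold lower, and it lay between -1.75 and -1.49 in the alternatives. No window of Cox6b2 occurred in another gene and no exon of it overlapped another gene. Cox6b1 carried nearly all the transcript of this subunit, with 252 ± 38.2 CPM in oxPAPC libraries and 272 ± 54.2 CPM in control libraries (SD, n = 4 each; log2 fold change -0.11 ± 0.18, SE, edgeR adjusted p = 0.746). Per kilobase of transcript Cox6b2 stood at 7.39 CPM in oxPAPC and 23.0 in control libraries, and Cox6b1 at 408 in oxPAPC and 440 in control libraries.

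No other complex IV subunit passed. Cox5b, a zinc-binding subunit, had the next smallest p, with 109, 83.7, 87.7 and 104 CPM in oxPAPC libraries and 88.9, 73.4, 75.3 and 68.2 CPM in control libraries. These groups overlapped, and the log2 fold change was 0.33 ± 0.14 (SE, edgeR adjusted p = 0.154). Cox4i1, the general form of subunit 4, had the highest mean CPM among the nuclear subunits of the complex. It had 749 ± 162 CPM in oxPAPC libraries and 638 ± 135 CPM in control libraries (SD, n = 4 each). The tissue-restricted forms were low in both groups: Cox4i2 had 1.58 ± 0.59 CPM in oxPAPC libraries and 0.915 ± 0.564 CPM in control libraries, and Cox7a1, the heart and muscle form, had 7.01 ± 1.88 CPM in oxPAPC libraries and 5.29 ± 0.372 CPM in control libraries (SD, n = 4 each). Cox8b, another muscle form, had a mean of 0.450 CPM in oxPAPC and 0.267 CPM in control libraries and was removed by the filter. Ndufa4 and Ndufa4l2 were counted here, since the Ndufa4 protein belongs to complex IV despite its name, and had log2 fold changes of 0.19 and -0.28.

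Of the 37 complex I subunits none passed the test. An unadjusted p under 0.05 was reached by 4 of the 37, a smaller share than the 4514 of all 16434 genes tested. Ndufa6, an accessory subunit of the LYR family that binds the acyl carrier protein, had 60.2, 54.5, 46.5 and 71.4 CPM in oxPAPC libraries, against 87.1, 70.1, 91.1 and 75.3 CPM in control libraries. Only oxPAPC replicate 4 overlapped the control group, above control replicate 2. Its log2 fold change was -0.48 ± 0.16 (SE, edgeR adjusted p = 0.0592), and it passed in 4 of 20 alternatives, among them the fit without oxPAPC replicate 4. Ndufs5, an accessory subunit on the intermembrane side, had 22.4, 23.4, 27.0 and 35.3 CPM in oxPAPC libraries, against 18.8, 15.6, 21.6 and 20.1 CPM in control libraries. The groups did not overlap, and the log2 fold change was 0.51 ± 0.17 (SE, edgeR adjusted p = 0.0611). Ndufa5 and Ndufb7, also accessory, had log2 fold changes of 0.54 and 0.50 and adjusted p by edgeR of 0.0675 and 0.0743.

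The core subunits of complex I named here showed values near 0. Ndufv1, which binds FMN and NADH, had a log2 fold change of -0.07 ± 0.21 (SE), and Ndufs1, the large iron-sulfur subunit, one of -0.01 ± 0.14 (SE). Ndufs3, Ndufs7 and Ndufs8 had -0.08, 0.15 and 0.11. Ndufa2 had the highest mean CPM of the nuclear complex I subunits over the 8 libraries. It had 217, 200, 138 and 137 CPM in oxPAPC libraries and 194, 179, 84.3 and 139 CPM in control libraries. Its log2 fold change was 0.21 ± 0.24 (SE). Over the complex the values lay between -0.48 and 0.57, with 26 above 0 and 11 below. The subunits summed to 2619 ± 220 CPM in oxPAPC libraries and 2466 ± 268 CPM in control libraries (SD, n = 4 each), and the groups overlapped.

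Complex II, which links the tricarboxylic acid cycle to the chain, had no call. Sdha, the flavoprotein that oxidizes succinate, had 79.8, 68.0, 142 and 116 CPM in oxPAPC libraries and 98.9, 125, 118 and 138 CPM in control libraries, and the log2 fold change was -0.24 ± 0.21 (SE, edgeR adjusted p = 0.517). The libraries overlapped widely. Sdhb, the iron-sulfur subunit, had 93.6 ± 15.0 CPM in oxPAPC libraries and 93.7 ± 17.2 CPM in control libraries (SD, n = 4 each), and the membrane anchors Sdhc and Sdhd had log2 fold changes of -0.07 ± 0.17 and 0.08 ± 0.15 (SE). The 4 subunits summed to 334 ± 57.6 CPM in oxPAPC libraries and 351 ± 25.2 CPM in control libraries (SD, n = 4 each).

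The members that help to build the complexes went both ways, with no call among 13. Among the 8 complex I assembly factors, Ndufaf3 had 16.1, 14.6, 19.5 and 16.8 CPM in oxPAPC libraries, against 22.1, 24.9, 19.5 and 24.3 CPM in control libraries. The groups touched at 19.5 CPM. Its log2 fold change was -0.43 ± 0.14 (SE, edgeR adjusted p = 0.0615), and it overlaps Impdh2 on the other strand, whose reads cannot be told from its own if counting ignored strand. Its partner Ndufaf4, which acts at the same early step, had the opposite sign, at 0.55 ± 0.22 (SE, edgeR adjusted p = 0.119). Ndufaf1 had 9.56 ± 0.716 CPM in oxPAPC libraries and 7.14 ± 0.93 CPM in control libraries (SD, n = 4 each), and its groups did not overlap (log2 fold change 0.42 ± 0.17, SE, edgeR adjusted p = 0.122). Ndufaf7, the highest of them, had a log2 fold change of 0.15. The 4 complex II assembly factors had values between -0.17 for Sdhaf3 and 0.04 for Sdhaf4, and Sdhaf2, which helps to attach FAD to Sdha, had -0.14. Cox7a2l, a factor that joins complexes III and IV into supercomplexes, had 252, 253, 187 and 223 CPM in oxPAPC libraries, against 378, 321, 293 and 268 CPM in control libraries. The groups did not overlap, but the log2 fold change of -0.46 ± 0.17 had an edgeR adjusted p of 0.0868 (SE), and it passed in 2 of 20 alternatives. Over the 106 tested members, 4 were higher and 2 lower in every oxPAPC library, where all genes tested gave 9.50% and 9.86%.

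Counts for their length differed widely from one mitochondrially encoded gene to another, and the next paragraph limits how far they can be read as levels. Per kilobase, mt-Co1, the catalytic subunit of complex IV, averaged 2734 CPM in oxPAPC and 3876 CPM in control libraries. The complex I subunit genes mt-Nd6, mt-Nd5 and mt-Nd1 averaged 1420, 1211 and 1176 CPM per kilobase in oxPAPC libraries. In control libraries they averaged 1534, 1209 and 895 CPM per kilobase. The RNA was poly(A)-selected, and how well this captured each mitochondrial transcript, mt-Nd6 among them, was not tested. The cytochrome b gene mt-Cytb, the heme-carrying core of complex III, averaged 1131 CPM per kilobase in oxPAPC and 813 in control libraries, mt-Nd2 689 in oxPAPC and 613 in control libraries, and mt-Nd4 324 in oxPAPC and 254 in control libraries. The other 6 genes had far fewer counts for their length. In CPM per kilobase, mt-Co2 averaged 20.1 in oxPAPC and 18.5 in control libraries, mt-Nd4l 10.1 in oxPAPC and 6.56 in control libraries, and mt-Nd3 8.16 in oxPAPC and 7.39 in control libraries. On the same scale mt-Atp6 averaged 7.84 in oxPAPC and 8.29 in control libraries, mt-Co3 7.82 in oxPAPC and 8.5 in control libraries, and mt-Atp8, which the filter removed, 0.88 in oxPAPC and 1.6 in control libraries.

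The low levels went with sequence that also occurs elsewhere. Of the windows of 50 bases, 100% of mt-Co2, 99.9% of mt-Co3, 99.5% of mt-Atp6, 98.8% of mt-Nd4l and 98.0% of mt-Nd3 occurred in a transcript of another gene, which includes copies of mitochondrial DNA in the nuclear genome. The share was 62.2% for mt-Nd4, 51.1% for mt-Co1, 8.19% for mt-Nd2 and 7.61% for mt-Nd5, and none for mt-Nd1, mt-Cytb, mt-Nd6 and mt-Atp8. The table held 7 such copies on chromosome 1 between 24611535 and 24616197, with between 3 and 548 counts in a library. The sources used here do not give how reads with several matches were handled, so the low values cannot be read as levels of these transcripts, and values for mt-Co1 and mt-Nd4 are uncertain in size. The windows were compared with annotated transcripts only, so copies elsewhere in the genome were not searched, also for mt-Atp8, which had no shared window. Part of mt-Atp8 overlaps mt-Atp6 on the same strand, and mt-Nd6 overlaps mt-Nd5 on the other. What the low counts of mt-Atp8 reflect was not tested.

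**Figure D3:**
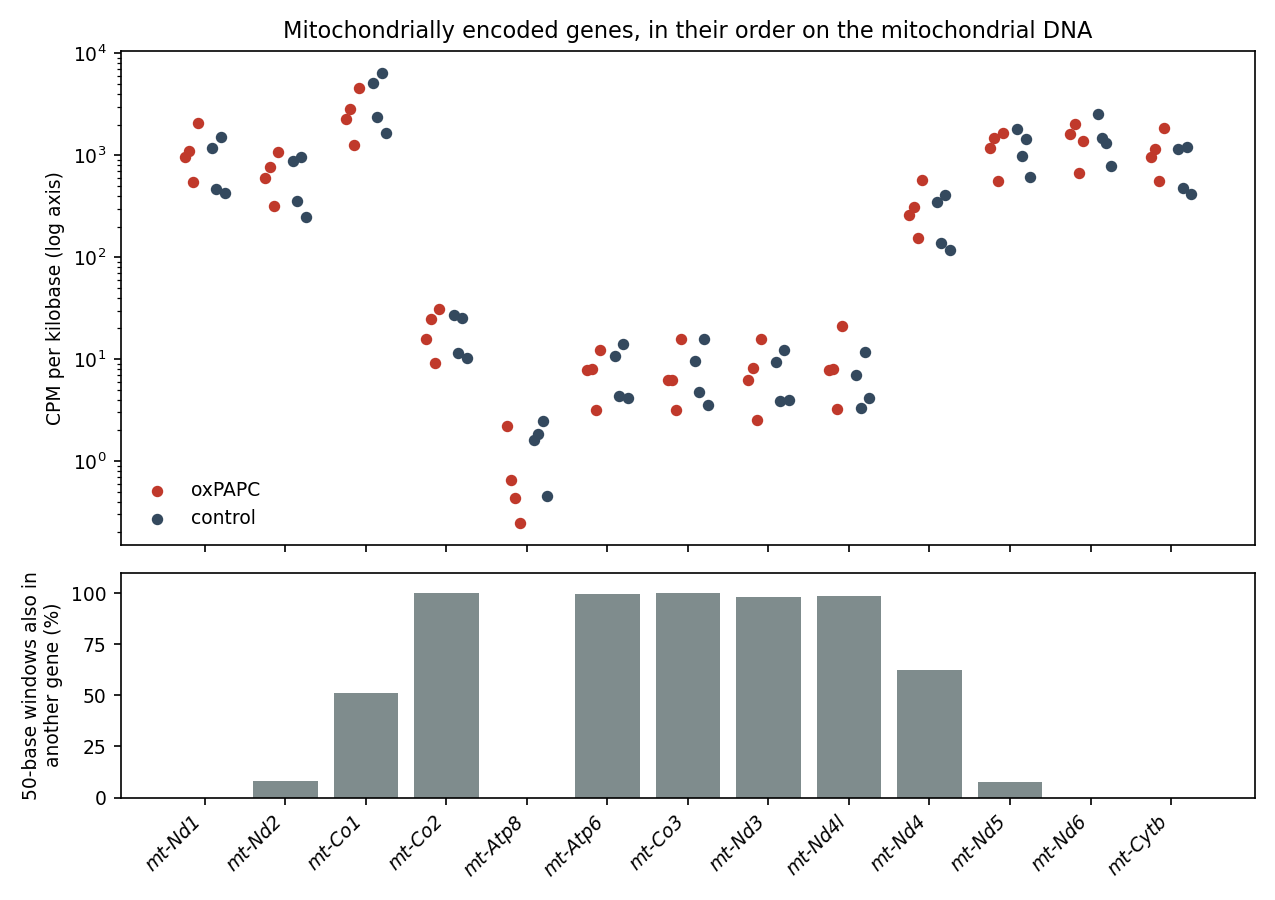
Top, level of each mitochondrially encoded gene in CPM per kilobase (log axis) by library, oxPAPC (red) left of control (dark). Bottom, percent of its 50-base windows that also occur in another gene; mt-Co2, mt-Co3, mt-Atp6, mt-Nd4l and mt-Nd3, at 98.0% to 100%, lie low in both groups.

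None of the 12 tested mitochondrially encoded genes passed the test, nor did any at an unadjusted p under 0.05. The log2 fold changes lay between -0.50 ± 0.44 for mt-Co1 (SE, edgeR adjusted p = 0.508) and 0.60 ± 0.50 for mt-Nd4l (SE, edgeR adjusted p = 0.487). The 7 mt-Nd genes had a median of 0.17, mt-Cytb had 0.48 ± 0.39 (SE, edgeR adjusted p = 0.474), the 3 mt-Co genes had a median of -0.13 and mt-Atp6 had -0.09. The value of -0.13 was that of mt-Co3. Values of mt-Co2, mt-Co3, mt-Atp6, mt-Nd3 and mt-Nd4l carry the limit on read assignment given above, as do medians that include them. In the 19 or 20 alternatives that gave a value, none of the 12 passed. The median of 0.12 changed sign with single libraries, to -0.05 without control replicate 2, -0.09 without control replicate 4 and -0.15 without oxPAPC replicate 4.

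The spread between replicates was wide. The median coefficient of variation of the mitochondrially encoded genes was 49.4% in oxPAPC and 57.7% in control libraries, that of the nuclear subunits 21.7% in oxPAPC and 19.9% in control libraries, and that of all genes with a mean of at least 10 CPM 15.5% in oxPAPC and 15.1% in control libraries. The cut at 10 CPM applied only to the figure for all genes, while the member medians include genes below it, such as mt-Nd3 and Cox4i2. The mitochondrially encoded genes had a median standard error of 0.42, against 0.19 for the nuclear members. In mt-Nd1 the values were 917, 1052, 527 and 2005 CPM in oxPAPC libraries and 1124, 446, 1447 and 409 CPM in control libraries. The median deviation of these genes from their group means, on the log2 scale, was -0.10, 0.18, -0.99 and 0.87 in oxPAPC libraries and 0.64, -0.59, 0.90 and -0.84 in control libraries, so that both groups held high and low libraries. Not every gene kept this order, since mt-Nd6 had 835, 1047, 349 and 717 CPM in oxPAPC libraries and 1316, 774, 684 and 410 CPM in control libraries. The 3 libraries with the lowest medians were those in which genes of high GC content were over-represented: Spearman's rho between a gene's deviation from its group mean and its GC content, over all genes, was 0.36 in oxPAPC replicate 3, 0.39 in control replicate 2 and 0.47 in control replicate 4, against -0.56 to -0.09 in the other 5. The mitochondrially encoded genes had a median GC content of 37.4%, and all genes one of 50.2%. The part of GC content in this spread was not tested. In a fit with a GC and length offset the median log2 fold change of the mitochondrially encoded genes was 0.19, a value that does not measure spread.

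Ratios between mitochondrially encoded genes within a library need no scaling. The 7 genes with at least 100 CPM gave 21 ratios. The ratio of mt-Co1 to mt-Nd1 counts was 3.80, 4.13, 3.73 and 3.54 in oxPAPC libraries, against 6.97, 8.27, 6.81 and 6.31 in control libraries, a log2 difference of -0.89. The groups were well apart although both genes varied severalfold between libraries. The ratio of mt-Co1 to mt-Cytb averaged 3.22 ± 0.136 in oxPAPC libraries and 6.32 ± 0.794 in control libraries, that of mt-Co1 to mt-Nd4 9.52 ± 0.443 in oxPAPC and 17.3 ± 1.66 in control libraries, and that of mt-Co1 to mt-Nd2 5.86 ± 0.381 in oxPAPC and 9.61 ± 0.689 in control libraries (SD, n = 4 each). The groups did not overlap in these 4 ratios. They overlapped for mt-Co1 over mt-Nd5 and over mt-Nd6, with log2 differences of -0.45 and -0.35, and in all 15 ratios without mt-Co1.

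As a share of the counts of the mitochondrially encoded members, mt-Co1 took 36.8, 37.1, 38.9 and 42.1% in oxPAPC libraries and 48.0, 47.3, 55.9 and 47.5% in control libraries. That is 38.7 ± 2.42% in oxPAPC and 49.7 ± 4.17% in control libraries (SD, n = 4 each), with no overlap. These counts carry the limit on read assignment given above, so this is a share of counts and not of transcripts. The count of ratios must be read against a background: 4 of 21 is 19.0%, and among all pairs of genes with a mean of at least 100 CPM the groups did not overlap in 22.8%. The ratios were looked at after the levels were known, and they carry no p. The nuclear copies of mt-Co1 in the table, Gm29216 and Gm13340, had log2 fold changes of -0.69 ± 0.44 and -0.46 ± 0.34 (SE, edgeR adjusted p = 0.345 and 0.409). Of the ribosomal RNAs read from the same strand, mt-Rnr2 (16S) had a log2 value of -0.73 ± 0.46 and mt-Rnr1 (12S) one of 0.16 ± 0.47 (SE, edgeR adjusted p = 0.329 and 0.871).

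**Figure D4:**
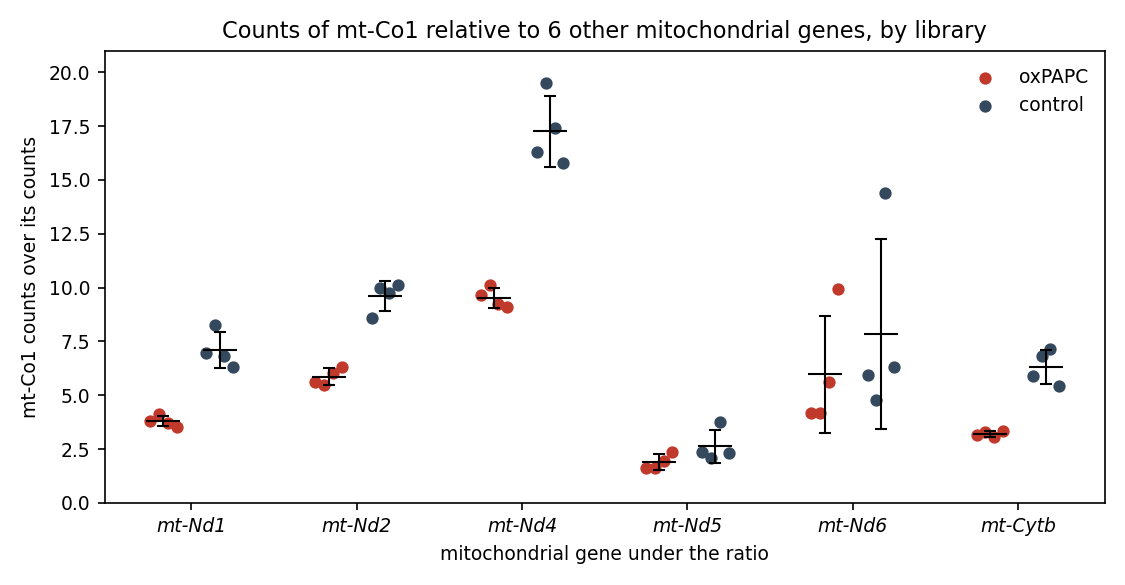
Counts of mt-Co1 divided by those of 6 other mitochondrially encoded genes in the same library, oxPAPC (red) left of control (dark), with the mean and SD of 4 libraries. The groups are apart for mt-Nd1, mt-Nd2, mt-Nd4 and mt-Cytb, at for example 3.80 ± 0.247 against 7.09 ± 0.838 for mt-Nd1, and overlap for mt-Nd5 and mt-Nd6.

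Nuclear and mitochondrially encoded members differed in how steady they were. The nuclear members took 1.15, 1.12, 1.10 and 1.24% of the counts in oxPAPC libraries and 1.06, 0.83, 1.06 and 1.00% in control libraries. These raw shares did not overlap, but they also hold the varying share of Gm26917. After TMM scaling the nuclear members summed to 10992 ± 898 CPM in oxPAPC libraries and 10356 ± 1073 CPM in control libraries (SD, n = 4 each), and the groups overlapped. The mitochondrially encoded members took 0.908, 1.23, 0.557 and 1.86% of the counts in oxPAPC libraries and 1.46, 0.630, 2.00 and 0.547% in control libraries. Their summed level was also divided by that of the nuclear members. This ratio was 0.786, 1.09, 0.508 and 1.5 in oxPAPC libraries and 1.38, 0.760, 1.89 and 0.545 in control libraries. Both groups thus held libraries with high and with low ratios. The mitochondrial counts carry the limit on read assignment given above, so these shares and ratios do not measure the balance of nuclear and mitochondrial transcripts.

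Genes that work beside the complexes held several calls. Cycs, which encodes cytochrome c, the carrier between complexes III and IV, averaged 69.1 ± 12 CPM in oxPAPC libraries and 35 ± 4.53 CPM in control libraries (SD, n = 4 each) and rose by 0.98 ± 0.15 (SE, edgeR adjusted p = 0.00101). Of the 16 tested genes of electron carriers and complex III outside the rule, 3 rose (18.8%, against 6.75% of all genes) and 1 fell (6.25%, against 6.52%). Coq2 and Coq7, enzymes of ubiquinone synthesis, had log2 fold changes of 0.56 and 0.85 (edgeR adjusted p = 0.013 and 0.0484), Coq7 just inside the threshold. Coq8a, which supports that synthesis, fell by 0.69 (edgeR adjusted p = 0.035). Cyc1, the cytochrome c1 of complex III, had 0.28 ± 0.18 (SE, edgeR adjusted p = 0.328). Of 35 assembly factors outside the rule 1 rose and 1 fell, 2.86% in each direction, which is under the 6.75% and 6.52% of all genes. Uqcc2, which acts on complex III, rose by 0.67 and Nubpl, which serves complex I iron-sulfur clusters, fell by 0.59 (edgeR adjusted p = 0.0248 and 0.0324).

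Among genes for the expression of mitochondrial DNA the calls were all rises. Of 27 tested genes of mitochondrial gene expression and biogenesis, 5 rose and none fell, with a median of 0.21. The risers were 18.5%, against 6.75% of all genes, and 6.52% of all genes fell. Pprc1, a coactivator of the PGC-1 family, averaged 84.1 ± 20.8 CPM in oxPAPC libraries and 41.8 ± 9.29 CPM in control libraries (SD, n = 4 each; log2 fold change 1.01 ± 0.19, SE, edgeR adjusted p = 0.0038). The mitochondrial RNA proteins Fastkd2, Fastkd3, Lrpprc and Pnpt1 rose by 0.93, 0.91, 0.62 and 0.53 (edgeR adjusted p = 0.00542, 0.00233, 0.0118 and 0.0496). Pnpt1 thus lay just inside the threshold. Tfam, which packages mitochondrial DNA and starts its transcription, had 0.04 ± 0.12, and Nrf1 and Gabpa, transcription factors of respiratory genes, had 0.34 ± 0.12 and -0.17 ± 0.17 (SE, edgeR adjusted p = 0.861, 0.0711 and 0.575). Of 77 mitochondrial ribosomal protein genes 11 rose and none fell, which is 14.3% against the 6.75% of all genes, with a median of 0.23. The smallest p had Mrpl20, Mrpl41, Mrps6 and Mrpl55, with log2 fold changes of 1.10, 0.95, 0.71 and 0.80. No test set these lists against the subunits or against other genes.

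**Figure D5:**
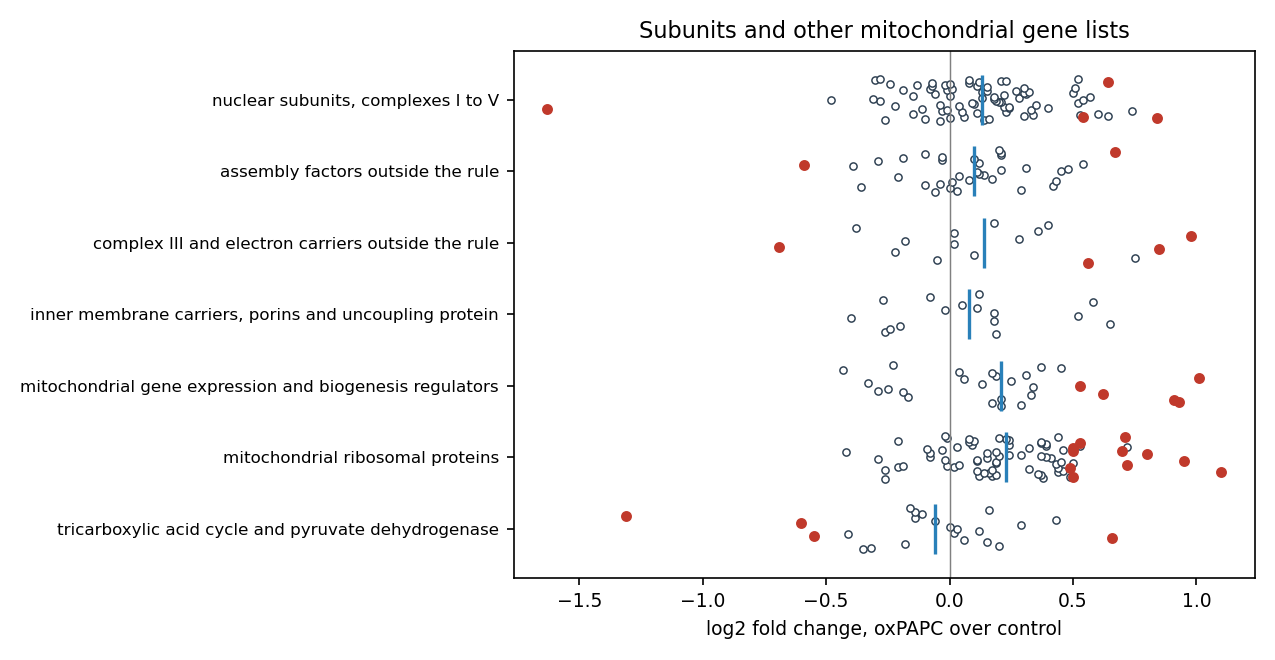
Log2 fold change, oxPAPC over control, of the nuclear subunits and of 6 gene lists outside the rule, 1 point per tested gene, filled red where it passed the test, with blue lines at the list medians. The medians lie at 0.13 for the subunits, 0.23 for the ribosomal proteins and -0.06 for the tricarboxylic acid cycle.

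Genes that supply electrons and substrates held calls in both directions. Of 23 tested genes of the tricarboxylic acid cycle and pyruvate dehydrogenase, 1 rose (4.35%, against 6.75% of all genes) and 3 fell (13%, against 6.52%), with a median of -0.06. Idh3a rose by 0.66 and Idh3b fell by 0.55, although both encode subunits of the same NAD-linked isocitrate dehydrogenase (edgeR adjusted p = 0.0163 and 0.0258). Pdha1, the catalytic subunit of pyruvate dehydrogenase, fell by 0.60, and Pdk2, a kinase that inhibits it, averaged 3.24 ± 0.652 CPM in oxPAPC libraries and 8.08 ± 1.39 CPM in control libraries (SD, n = 4 each) and fell by 1.31 (edgeR adjusted p = 0.0408 and 0.00152). None of 16 inner membrane carriers, porins and the uncoupling protein passed. Ucp2, the uncoupling protein of immune cells, had 0.58 ± 0.20 (log2, SE; edgeR adjusted p = 0.0727).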

How the data were processed

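Libraries came from poly(A)-selected RNA, per the labels' protocols. Tools were STAR 2.7.8a, DESeq2 1.30.1 and featureCounts 2.0.2, with the build GRCm38.p6, per the submitters' processing notes. Strandedness and the handling of reads with several matches are not given in the sources used here. The authors deposited whole-number counts per gene and library, not normalized, per the file headers. Beside them the authors deposited DESeq2 results: p-values, linear and log2 fold changes, the Wald statistic (a score) and mean normalized counts (a signal), of which only the log2 fold changes and adjusted p-values were used.

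Samples were grouped by their labels. Counts were scaled by TMM, filtered with filterByExpr and the groups were tested across all 16434 remaining genes by edgeR's quasi-likelihood method (version 4.0.16, R 4.3.3), with Benjamini-Hochberg adjustment at 0.05. The self-test of the fit used simulated data. CPM values follow TMM scaling, and standard errors come from the log2 fold change and the F statistic. The common biological coefficient of variation was 0.207 at totals of 14017583 to 21619731 counts.

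Classes follow gene symbols. Transcript lengths, GC content, overlaps and shared 50-base windows come from GENCODE M21, whose coordinates match those of all 108 members, and promoters from RefSeq. Levels per kilobase use the length of the principal transcript. Alternatives were RLE and library size scaling, no filter, a mean of at least 5 CPM as the filter, limma-voom (limma 3.58.1) without and with quality weights, DESeq2 1.42.0, a replicate block, leaving out each library, fits without Gm26917 and Rn7sk or without mitochondrial genes in the scaling, a Gm26917 covariate, and a GC and length offset (loess span 0.5).

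The members and lists were chosen with earlier results of these data known. Members named in full were the called ones, the mitochondrially encoded ones and, in each class, the one with the highest mean CPM and the 2 with the smallest p; in each list outside the rule they were up to 4 called genes with the smallest p. Other genes and the ratios were chosen after their values were seen. One member is counted in the totals but not reported by name here.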

Additional observations from a re-analysis of the deposited data

Results flagged for a closer look

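Among 64 sets of 4 replicate values, 3 had 1 library that stood far from the rest of its group, and chance alone would give about 3. Ndufaf4 had 17.4 CPM in oxPAPC replicate 4, against 11 to 11.9 CPM in the other oxPAPC libraries. Sdhd had 61.7 CPM in oxPAPC replicate 2, against 79.4 to 82.2 CPM in the other oxPAPC libraries. Uqcrq had 145 CPM in control replicate 1, against 106 to 110 CPM in the other control libraries.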

How the results depend on the processing

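The main counts were 3 members higher and 1 lower. The higher count was 6 with library size scaling, 9 with DESeq2, 10 with limma-voom and quality weights, 8 with the offset for GC and length, 5 with Gm26917 as covariate, and 1 to 6 with a library left out. The lower count was 2 with the filter at 5 CPM, 3 with DESeq2, 2 with quality weights, 5 with the offset for GC and length, 2 with Gm26917 as covariate, and 1 to 2 with a library left out. All 4 genes called by edgeR were among the calls in each of these alternatives other than those that left out a library or used a block. The median of the nuclear subunits was 0.27 with library size scaling, where the median of all genes was 0.12, 0.07 with the offset for GC and length, and 0.08 to 0.21 with a library left out. The median of the mitochondrially encoded genes was -0.15 to 0.44 with a library left out. Over all genes and both directions, the main fit gave 2182 calls. Library size scaling gave 1613, DESeq2 2723, limma-voom with quality weights 2815 and the offset for GC and length 3159. Gm26917 as covariate gave 2231, the filter at 5 CPM 1884, the replicate block 1453, and fits with a library left out 1390 to 2134. The member counts are to be read beside these totals. The causes of these moves were not tested.

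The replicate numbers are shared by both groups, but no label says what they mark. Deviations of same-numbered libraries correlated at 0.32, -0.053, -0.37 and -0.035, and the best match of 2 of the 8 libraries was the one with the same number. These correlations cannot tell whether a number marks a shared mouse or culture. Since no label says so, the numbers were treated as names only in the main fit. With the replicate block, 2 members were higher (Atp5g1 and Uqcr11) and 1 lower (Cox6b2), the median of the nuclear subunits was 0.12 and that of the mitochondrially encoded genes 0.09. An alternative planned for normalized values did not apply, since the deposited values are counts. At this depth and spread, mitochondrially encoded genes, with a median standard error of 0.42, gave no call even at fitted log2 differences of -0.50 (mt-Co1) and 0.60 (mt-Nd4l), so differences of this size can be missed.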
